A study of Mus musculus with 8 samples.

Results

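Follistatin, the activins, the bone morphogenetic proteins (BMPs), the other TGF-beta ligands, their receptors, the SMAD proteins and the Id target genes were described in mouse prostate with and without *Olfm4*. The list holds 43 genes. It was drawn up around *Fst*, the gene of follistatin, because *Fst* had the clearest higher level in knockout prostate among the genes that the study names, and the other genes were added as known parts of its pathway. Of the 43 genes, 41 had at least 1 probe set with their symbol alone, in all 87 of the 45037 probe sets on the array. *Bmp3* and *Gdf15* had none, and 1 probe set that *Acvr2a* shares with *Orc4* was left out.

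Whole prostate was taken at 3 months of age from mice of a mixed background, with Black Swiss of the National Institutes of Health and 129/SV at 50% each. The knockout mice were *Olfm4* (-/-) and the control mice *Olfm4* (+/+), neither group was treated, and each genotype gave 4 arrays, numbered 1 to 4. The study used the arrays to look for mechanisms behind the prostate lesions of the knockout mice. Every value below is a log2 expression value, so a difference of 1 is a doubling, and every difference is knockout minus wild type.

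Activins, BMPs and the other ligands of the TGF-beta superfamily are secreted dimers that bind type I and type II receptor kinases. The receptors phosphorylate SMAD proteins, which enter the nucleus with the common SMAD and switch on targets such as the Id genes. Follistatin binds activins outside the cell with high affinity, and some BMPs more weakly, and keeps them from their receptors. In the prostate, activins, BMPs and their antagonists are known for roles in ductal branching and in signaling between stroma and epithelium.

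The targeted gene separated the genotypes. *Olfm4* (1437060_at) lay between 3.00 and 3.25 on the knockout arrays and between 10.23 and 10.74 on the wild-type arrays. Array medians lay between 6.03 and 6.09. Both knockout array 1 and wild-type array 1 read far higher in seminal vesicle markers than the others: the mean over 6 of 7 listed seminal vesicle markers was 13.81 and 14.15 on these arrays, against 7.88 to 10.04 on the other 6. Knockout array 1 also stood apart in prostate secretory markers (4 of 4 measured), at 12.99 against 14.04 to 14.29 elsewhere, and in smooth muscle markers (6 of 6 measured), at 13.44 against 13.03 to 13.19. The mean of the luminal markers measured, 3 of 5 listed, was 13.61 to 13.72 on the knockout and 13.73 to 13.74 on the wild-type arrays. Every knockout array thus lay below every wild-type array, by a small mean difference of -0.06, and 0 of the 3 markers had an unadjusted limma p under 0.05. Without knockout array 1 and wild-type array 1, the difference changed sign for 5 of the 41 listed genes (*Fstl1*, *Gdf11*, *Tgfb3*, *Bmpr1b* and *Smad2*) and changed in size by over 1.5 times for 17 more. Without both arrays, *Inhbb* differed by 0.23 (unadjusted p = 0.209), *Acvr1* by 0.40 (unadjusted p = 0.0885) and *Acvr2b* by -0.40 (unadjusted p = 0.00415, adjusted p = 0.212). *Smad1* differed by 0.19 (unadjusted p = 0.116), *Smad7* by 0.21 (unadjusted p = 0.119) and *Id2* by 0.34 (unadjusted p = 0.0253, adjusted p = 0.318; limma for all). For some other genes these values are given below.

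*Fst* had a clearly higher level in knockout prostate at its brightest probe set. At 1434458_at the knockout arrays 1 to 4 read 10.57, 10.82, 10.50 and 10.73, and the wild-type arrays 1 to 4 read 10.03, 10.03, 9.65 and 9.67. Every knockout array lay above every wild-type array. The means were 10.65 ± 0.15 and 9.84 ± 0.22 (SD, n = 4 each), a difference of 0.81 (SE 0.13, 95% confidence interval 0.51 to 1.11), or 1.75-fold. Since *Fst* was picked for this difference, the difference, its interval and its values under other settings are descriptions and carry no test. They come from the arrays in which it was picked and add no support. In bulk tissue, more cells that express a gene and more RNA per cell cannot be told apart.

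The difference was of like size on both array days, 0.77 on day 1 and 0.85 on day 2. It ranged from 0.72 to 0.89 when each array was left out in turn, and was 0.96 without knockout array 1 and wild-type array 1. The second *Fst* probe set did not show it. At 1421365_at the knockout arrays read 7.36, 7.08, 7.55 and 7.42 and the wild-type arrays 7.50, 7.42, 7.55 and 7.35, so the groups overlapped, with a difference of -0.10 (SE 0.10). Averaged over both probe sets, the *Fst* difference was 0.35.

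The follistatin relatives differed by less than *Fst*. *Fstl1*, a secreted glycoprotein of stromal cells, differed by 0.12 (SE 0.11, unadjusted p = 0.288), and *Fstl3*, which also binds and blocks activins, by 0.13 (SE 0.14, unadjusted p = 0.359; limma for both). For *Fstl1* the knockout arrays ran from 9.57 to 9.93 and the wild-type arrays from 9.47 to 9.74, and knockout array 1 was the highest. Without knockout array 1 the differences at these probe sets were 0.03 for *Fstl1* and 0.01 for *Fstl3*. The second *Fstl1* probe set, 1416221_at, differed by 0.20 (SE 0.10, unadjusted p = 0.0856, limma), and knockout array 1 was not its highest array. With 1 array left out, the difference there ranged from 0.12 to 0.26.

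**Figure D1:**
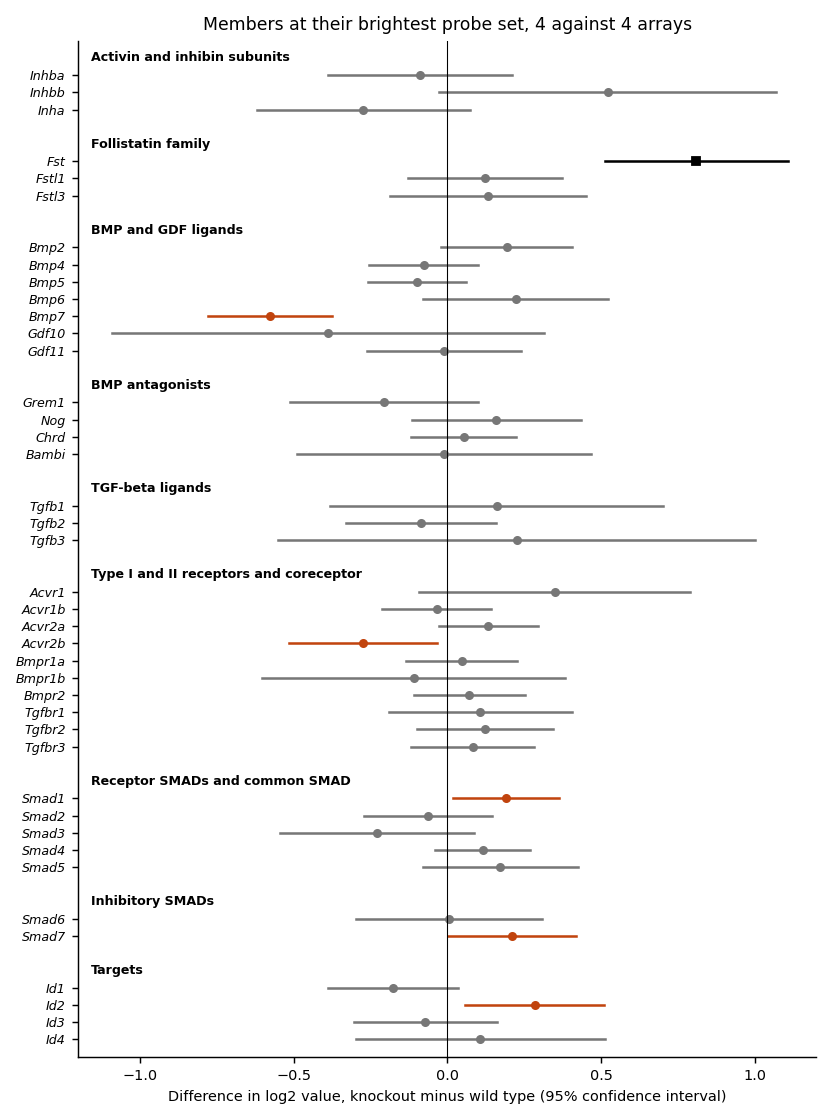
Difference in log2 value, knockout minus wild type, of the 41 measured genes at their brightest probe set, grouped by role; points are limma estimates from 4 against 4 arrays and lines 95% confidence intervals. *Fst* (black square, the gene the list was built around) lies at 0.81 and *Bmp7* at -0.58; coloured genes have an unadjusted p under 0.05 and grey genes do not.

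Among the activin and inhibin subunits, which follistatin or the receptors bind as dimers, none passed the test. *Inhbb*, the beta-B subunit of activin B, read 8.27, 7.45, 6.84 and 6.87 on the knockout arrays and 6.56, 7.11, 6.77 and 6.91 on the wild-type arrays. Its difference was 0.52 (SE 0.23, unadjusted p = 0.0591, adjusted p = 0.412, limma with Benjamini-Hochberg adjustment over all 45037 probe sets). Knockout array 1 was the highest of the 8, and without it the difference was 0.28 (unadjusted p = 0.092, limma), while without wild-type array 4 it was 0.67 (unadjusted p = 0.0265, limma).

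*Inhba*, the beta-A subunit of activin A, differed by -0.09 (SE 0.13), with knockout arrays from 6.35 to 6.71 and wild-type arrays from 6.37 to 6.81. *Inha*, the alpha subunit that turns an activin dimer into an inhibin, differed by -0.27 (SE 0.15, unadjusted p = 0.106, limma), with knockout arrays from 4.74 to 5.36 and wild-type arrays from 5.24 to 5.68. Both sets of ranges overlapped.

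*Bmp7* had the lowest difference of the 41 genes. BMP7 is a BMP ligand known in prostate development. At its brightest probe set, 1418910_at, the knockout arrays read 10.99, 10.90, 11.07 and 11.20 and the wild-type arrays 11.65, 11.75, 11.51 and 11.56. All knockout arrays were lower than all wild-type arrays. The means were 11.04 ± 0.13 and 11.62 ± 0.10 (SD, n = 4 each), a difference of -0.58 (SE 0.086, 95% confidence interval -0.78 to -0.37), or 1.49-fold lower in knockout.

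Across all probe sets this difference did not pass the threshold in limma (unadjusted p = 2.10e-04, adjusted p = 0.0919). The exact 2-sided permutation test over all splits of the arrays, which ignores array day, gave p = 0.0286. Permuted within array days, as the blocked design asks, the exact p was 0.0556. Each is the smallest that its design allows, so the second cannot pass 0.05. The difference was -0.47 on array day 1 and -0.68 on day 2, and -0.58 without knockout array 1 and wild-type array 1. Over 19 alternative settings the adjusted p ranged from 0.038 to 0.839, and it was under 0.05 only when limma's variance was fitted with an intensity trend and robustly.

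The other *Bmp7* probe sets did not all share this sign. At 1432410_a_at the knockout arrays read 8.28, 8.54, 8.68 and 8.99 and the wild-type arrays 9.35, 9.37, 8.98 and 8.75, which overlapped, with a difference of -0.49 (SE 0.19, unadjusted p = 0.0338, adjusted p = 0.352, limma). At 1435479_at the knockout arrays read 10.50, 10.93, 11.10 and 10.69 and the wild-type arrays 10.07, 10.69, 11.00 and 10.94, a difference of 0.13 (SE 0.23, unadjusted p = 0.584, limma). Wild-type array 1 was the lowest of the 8 at this probe set.

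**Figure D2:**
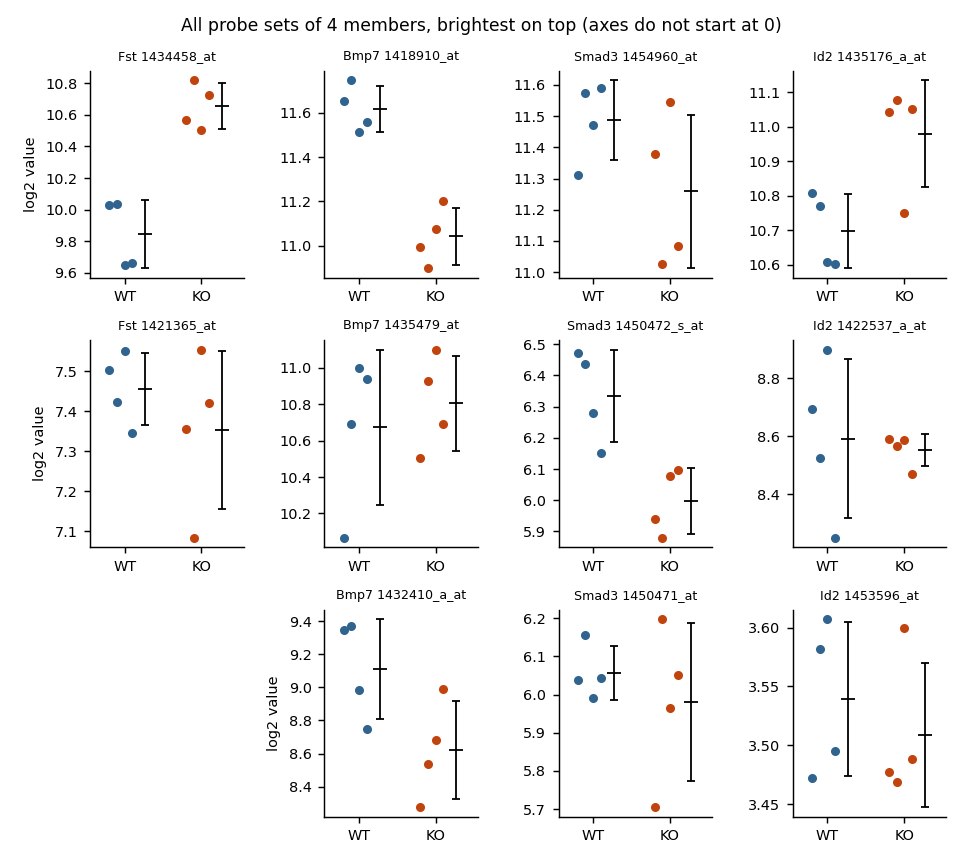
Log2 values of every probe set of *Fst*, *Bmp7*, *Smad3* and *Id2*, brightest on top; points are arrays (WT, wild type, 4; KO, knockout, 4) and bars the mean and SD. At the top probe sets of *Fst* and *Bmp7* the groups do not overlap, while 1421365_at of *Fst* and 1435479_at of *Bmp7* overlap.

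None of the other BMP and GDF ligands reached an unadjusted p under 0.05. *Gdf10*, also called BMP3B, read 8.81, 7.73, 8.62 and 9.22 on the knockout arrays and 9.00, 9.38, 8.52 and 9.03 on the wild-type arrays, a difference of -0.39 (SE 0.30, unadjusted p = 0.234, limma). Knockout array 2 was the lowest of the 8, and the difference was -0.11 without it and -0.67 without knockout array 1 and wild-type array 1. *Bmp2* differed by 0.19 (SE 0.091, unadjusted p = 0.0693, limma) and *Bmp4*, a stromal inhibitor of ductal branching in prostate, by -0.08 (SE 0.076).

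*Bmp6* differed by 0.22 (SE 0.13), but knockout array 1 read 6.87 and the other 7 arrays 6.14 to 6.36, and without that array the difference was 0.09. *Bmp5* and *Gdf11* had means under 5, where array signal is close to background, and differed by -0.10 and -0.01. A second *Bmp5* probe set, 1455851_at, had all knockout arrays below all wild-type arrays, with a difference of -0.53 (SE 0.27, unadjusted p = 0.0817, limma). Its wild-type array 1 read 5.37 and the other 3 wild-type arrays 4.15 to 4.27, and its mean was 4.23.

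Of the BMP antagonists other than follistatin, none had an unadjusted p under 0.05. *Nog*, *Chrd* and *Grem1* encode noggin, chordin and gremlin, which bind BMPs outside the cell, and *Bambi* a pseudoreceptor without kinase activity. Their differences were 0.16 (SE 0.12), 0.05 (SE 0.073), -0.21 (SE 0.13) and -0.01 (SE 0.20). *Nog* and *Grem1* had means under 5.

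The TGF-beta ligands did not pass the test either. *Tgfb3* read 10.89 on knockout array 1 and 9.24 to 9.72 on the other 7 arrays. With all arrays its difference was 0.22 (SE 0.33), and without knockout array 1 it turned to -0.16 (unadjusted p = 0.261, limma). *Tgfb1* differed by 0.16 (SE 0.23) and *Tgfb2* by -0.09 (SE 0.10).

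Knockout array 1 was thus the highest array for *Inhbb*, *Bmp6* and *Tgfb3*. This array was the highest of the 8 for 8 of the 41 genes (19.5%), where it was the highest for 17.7% of all genes. It was the lowest for 7 (17.1%), where it was the lowest for 21.9% of all genes. Its outlying values are thus not particular to the list. On that array the mean of the 6 fibroblast markers was 10.62, the highest of the 8 (the others 10.03 to 10.56), beside the high smooth muscle and seminal vesicle values and the low prostate secretory value given above. The part of these cells in the 3 genes was not tested.

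**Figure D3:**
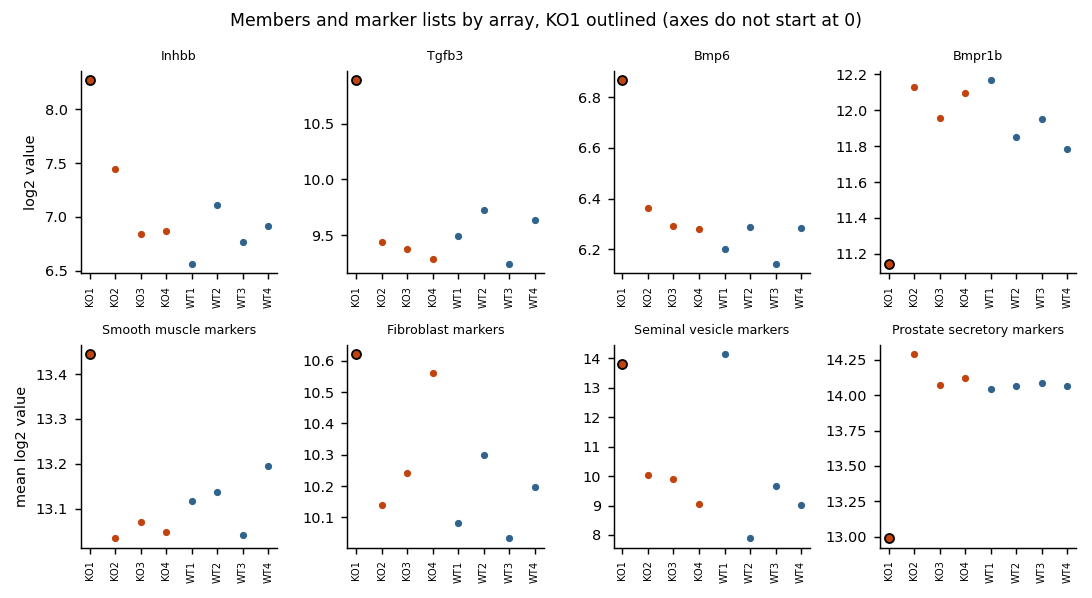
Log2 values by array of *Inhbb*, *Tgfb3*, *Bmp6* and *Bmpr1b* (top) and means of 4 marker lists (bottom); KO1 to KO4 are knockout arrays and WT1 to WT4 wild-type arrays, with KO1 outlined. KO1 is the highest for the first 3 genes and for smooth muscle and fibroblast markers, and the lowest for *Bmpr1b* and prostate secretory markers.

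Of the 10 receptors and coreceptors, 7 had higher and 3 lower means in knockout. At an unadjusted limma p under 0.05, 0 were higher, where 6.27% of all genes were, and 1 (10%) was lower, where 8.49% of all genes were. That gene was *Acvr2b*, a type II receptor for activins. At 1419140_at the knockout arrays read 8.13, 8.04, 8.29 and 8.27 and the wild-type arrays 8.27, 8.53, 8.35 and 8.67, with a difference of -0.27 (SE 0.10, unadjusted p = 0.0311, adjusted p = 0.345, limma). The ranges overlapped, since wild-type array 1 lay below the highest knockout array. The other *Acvr2b* probe sets differed by 0.19 and 0.02.

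*Acvr1*, a type I receptor for BMPs and activins, read 5.84, 6.53, 5.99 and 6.51 on the knockout arrays and 5.69, 5.78, 5.85 and 6.16 on the wild-type arrays, a difference of 0.35 (SE 0.19, unadjusted p = 0.105, limma). Its groups overlapped. With 1 array left out the difference ranged from 0.20, without knockout array 2 (unadjusted p = 0.282, limma), to 0.48, without knockout array 1 (unadjusted p = 0.0311, limma). Of its other probe sets 1416786_at differed by 0.20 and 1416787_at by -0.05. *Acvr1b* and *Acvr2a*, the main type I and type II activin receptors, differed by -0.03 (SE 0.076) and 0.13 (SE 0.069).

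The BMP receptors *Bmpr1a* and *Bmpr2* differed by 0.05 (SE 0.077) and 0.07 (SE 0.077) at their brightest probe sets. A dim *Bmpr2* probe set, 1441652_at, read 4.62, 4.79, 4.75 and 5.20 on the knockout arrays and 5.12, 4.98, 5.55 and 5.67 on the wild-type arrays, a difference of -0.49 (SE 0.18, unadjusted p = 0.0271, adjusted p = 0.333, limma), opposite in sign to the brightest. *Bmpr1b* read 11.14 on knockout array 1, the lowest of the 8, and 11.78 to 12.17 on the others. Its difference was -0.11 (SE 0.21) with all arrays, 0.12 without knockout array 1, and 0.23 without knockout array 1 and wild-type array 1 (unadjusted p = 0.0364, adjusted p = 0.349, limma). The other *Bmpr1b* probe sets, 1443720_s_at and 1422872_at, differed by -0.20 (SE 0.29) and -0.44 (SE 0.26) with all arrays. Without knockout array 1 they differed by 0.03 and -0.20. The TGF-beta receptors *Tgfbr1* and *Tgfbr2* and the coreceptor *Tgfbr3* differed by 0.11 (SE 0.13), 0.12 (SE 0.095) and 0.08 (SE 0.086). Without knockout array 1 and wild-type array 1, *Tgfbr1* differed by 0.25 (unadjusted p = 0.0714, limma).

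Among the receptor SMADs, *Smad1*, which carries BMP signals, had a small higher mean in knockout. At 1459843_s_at the knockout arrays read 12.96, 13.04, 12.79 and 12.77 and the wild-type arrays 12.64, 12.79, 12.63 and 12.73, a difference of 0.19 (SE 0.074, unadjusted p = 0.0345, adjusted p = 0.353, limma). The groups overlapped at wild-type array 2. Its other probe sets differed by 0.18 and 0.03. *Smad5*, the other BMP SMAD measured in the list, differed by 0.17 (SE 0.11, unadjusted p = 0.153, limma).

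*Smad3*, a SMAD of the activin and TGF-beta branch, had lower means at all 3 of its probe sets. The brightest, 1454960_at, differed by -0.23 (SE 0.14, adjusted p = 0.531, limma) and its groups overlapped. With 1 array left out it ranged from -0.34, without knockout array 3 (unadjusted p = 0.0272, limma), to -0.14, without knockout array 2 (unadjusted p = 0.336, limma), and it was -0.39 without knockout array 1 and wild-type array 1 (unadjusted p = 0.0391, limma). At 1450472_s_at the knockout arrays read 5.94, 5.88, 6.08 and 6.10 and the wild-type arrays 6.47, 6.44, 6.28 and 6.15. All knockout arrays were lower than all wild-type arrays there, with a difference of -0.34 (SE 0.094, unadjusted p = 0.00814, adjusted p = 0.263, limma; exact permutation p = 0.0286 over all splits and 0.0556 within array days). The third, 1450471_at, differed by -0.08. *Smad2*, its partner in that branch, differed by -0.06 (SE 0.089) at its brightest probe set. At its other probe set, 1442062_at, *Smad2* differed by -0.29 (SE 0.13, unadjusted p = 0.0603, limma). With 1 array left out this ranged from -0.40, without wild-type array 1 (unadjusted p = 0.00768, limma), to -0.17, without wild-type array 4 (unadjusted p = 0.141, limma).

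*Smad4*, the common SMAD, was the only gene besides *Fst* with every knockout array above every wild-type array. The knockout arrays read 12.67, 12.84, 12.70 and 12.68 and the wild-type arrays 12.62, 12.55, 12.63 and 12.63. The difference was small, 0.11 (SE 0.066, unadjusted p = 0.125, limma), and the other 2 *Smad4* probe sets differed by -0.0044 (1422486_a_at) and by 0.17 (1422485_at).

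Of the inhibitory SMADs, which BMP and TGF-beta signals induce and which then block the receptors, *Smad7* had a higher mean in knockout. At 1443771_x_at the knockout arrays read 11.52, 11.71, 11.57 and 11.66 and the wild-type arrays 11.37, 11.47, 11.23 and 11.56, a difference of 0.21 (SE 0.089, unadjusted p = 0.0483, adjusted p = 0.386, limma). Only wild-type array 4 reached into the knockout range. Its second probe set differed by 0.11 (SE 0.15), and *Smad6* by 0.0042 (SE 0.13).

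The Id genes encode inhibitors of basic helix-loop-helix factors and are standard targets of BMP signaling. Their differences had both signs. *Id2* read 11.04, 11.08, 10.75 and 11.05 on the knockout arrays and 10.81, 10.77, 10.61 and 10.60 on the wild-type arrays at 1435176_a_at, a difference of 0.28 (SE 0.097, unadjusted p = 0.0202, adjusted p = 0.311, limma). Knockout array 3 lay inside the wild-type range. The other *Id2* probe sets differed by -0.04 and -0.03. *Id1*, *Id3* and *Id4* differed by -0.18 (SE 0.091, unadjusted p = 0.0884, limma), -0.07 (SE 0.099) and 0.11 (SE 0.17), and *Id4* by 0.29 without knockout array 1 and wild-type array 1 (unadjusted p = 0.187, limma).

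The promoters of 3 Id genes are shown because these genes are the usual readout of BMP SMADs. The sequences come from RefSeq (build GRCm38.p6) and run from 250 bases before to 50 bases after the start of the gene. The letters GGCGCC, the core of the BMP response element and the same on both strands, are in capitals. *Id2* (chr12:25096043-25096342, minus strand) and *Id4* (chr13:48260866-48261165, plus strand) each held 1 match, and *Id3* (chr4:136143572-136143871, plus strand) held none. The table gave no entry for *Id1*.
Id2: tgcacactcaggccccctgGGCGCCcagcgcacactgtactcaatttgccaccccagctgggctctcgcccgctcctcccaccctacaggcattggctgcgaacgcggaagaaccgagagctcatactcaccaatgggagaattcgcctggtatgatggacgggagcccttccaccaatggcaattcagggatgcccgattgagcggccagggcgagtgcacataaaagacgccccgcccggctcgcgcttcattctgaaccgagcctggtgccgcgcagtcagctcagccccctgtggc
Id3: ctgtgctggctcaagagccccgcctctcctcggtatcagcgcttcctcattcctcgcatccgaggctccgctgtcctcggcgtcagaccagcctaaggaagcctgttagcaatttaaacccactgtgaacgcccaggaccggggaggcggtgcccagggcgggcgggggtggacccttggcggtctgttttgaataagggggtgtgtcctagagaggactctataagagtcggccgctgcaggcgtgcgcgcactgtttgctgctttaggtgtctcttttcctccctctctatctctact
Id4: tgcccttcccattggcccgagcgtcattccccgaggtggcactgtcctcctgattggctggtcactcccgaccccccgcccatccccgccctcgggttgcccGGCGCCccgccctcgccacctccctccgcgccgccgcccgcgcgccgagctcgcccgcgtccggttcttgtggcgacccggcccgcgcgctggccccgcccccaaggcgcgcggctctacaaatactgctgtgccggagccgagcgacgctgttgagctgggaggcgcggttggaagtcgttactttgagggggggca

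GGCGCC was found in 11.9% of all 32851 promoters of this length and in 11 of the 37 promoters of 31 listed genes that had an entry (29.7%), from 10 genes. The motif holds only G and C, and the median GC content was 66.3% in the 37 promoters and 52.7% in all, with a median of 25 and 7 CpG sites, so the shares are not compared at like composition. The GLI core GACCACCCA, searched on both strands, was found in 0.253% of all promoters and in none of the 37. The paired SMAD box GTCTAGAC, the same on both strands, was found in 0.213% of all promoters and in 1 of the 37, that of *Smad6*. A match is a description of the letters, and none of these genes was tested for binding.

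Over the whole list, the knockout mean at the brightest probe set was above the wild-type mean for 24 of the 41 genes and below it for 17. The median difference was 0.07, or 0.06 without *Fst*, beside -0.01 over all 18193 genes. The median size of the difference was 0.133 against 0.106 over all genes. Adjusted over all probe sets, 0 of the 87 probe sets had a limma p under 0.05, whereas 50 of all 45037 did (0.111%).

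At an unadjusted limma p under 0.05, 4 of the 41 genes were higher in knockout (*Fst*, *Smad1*, *Smad7* and *Id2*), where 6.27% of all genes were. Without *Fst*, for which the list was drawn up, this was 3 of 40, or 7.5%, close to the share of all genes. Lower in knockout were 2 of the 40 (*Bmp7* and *Acvr2b*), or 5%, where 8.49% of all genes were. The test that the methods name, run without array day, added *Acvr2a* and *Smad4*. By that test 6 of the 41 genes were higher, or 5 of 40 without *Fst*, where 6.08% of all genes were, and 2 were lower, where 8.92% of all genes were. Its lowest adjusted p over the list was 0.154.

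Without *Fst*, knockout values lay above all wild-type values for 1 of 40 genes (*Smad4*; 2.5%), where this held for 4.49% of all genes, and below for 1 (*Bmp7*; 2.5%), where this held for 6.29%. Of the 26 genes with several probe sets, 46 further probe sets could be set beside the brightest: 28 had the same sign and 18 the opposite.

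**Figure D4:**
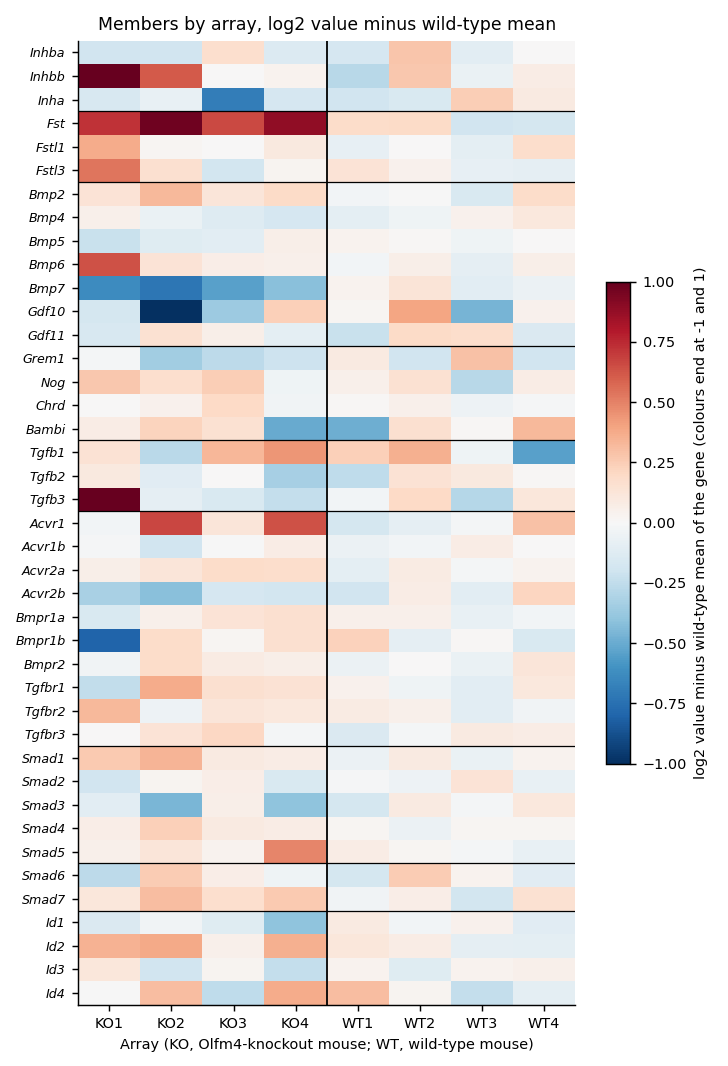
Log2 value of each of the 41 genes on each array minus the mean of its 4 wild-type arrays, as colour (red higher, blue lower, ending at -1 and 1), with knockout arrays on the left. *Fst* is red and *Bmp7* blue on all 4 knockout arrays, and most other rows mix colours within a genotype.

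Single arrays weighed on the list. Wild-type array 3 was the lowest of the 8 for 11 of the 41 genes (26.8%), where it was the lowest for 11.0% of all genes, and knockout array 2 was the highest for 9 (22.0%), where it was the highest for 13.8%.

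Of 71 further genes of the superfamily, 64 were measured, and 0 passed the adjusted threshold in limma. Their means were higher for 33 and lower for 31, with 4 higher (6.25%) and 5 lower (7.81%) at an unadjusted p under 0.05, close to the 6.27% and 8.49% of all genes. Knockout values lay above all wild-type values for 4 of the 64 (6.25%), where this held for 4.49% of all genes. They lay below for 2 (3.1%), where this held for 6.29%. The lowest adjusted p belonged to *Crim1*, a membrane protein that binds BMPs, including BMP7. Its knockout arrays read 7.92, 8.12, 7.77 and 7.74 and its wild-type arrays 7.27, 7.41, 7.49 and 7.35, without overlap, a difference of 0.50 (SE 0.072, adjusted p = 0.0795, limma). Its other probe set, 1426951_at, had the opposite sign, -0.14 (SE 0.14, unadjusted p = 0.341, limma).

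*Chrdl1* and *Chrdl2*, chordin-like BMP antagonists, differed in opposite directions. For *Chrdl1* the knockout arrays ran from 9.94 to 10.15 and the wild-type arrays from 9.65 to 9.79, a difference of 0.33 (SE 0.070, adjusted p = 0.198, limma). Its other probe sets differed by 0.17, 0.17 and, at 1424945_at, -0.20. For *Chrdl2* the knockout arrays ran from 7.03 to 7.25 and the wild-type arrays from 7.31 to 8.14, a difference of -0.69 (SE 0.13, adjusted p = 0.164, limma). Neither gene's groups overlapped at these probe sets.

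*Acvrl1*, a type I receptor of endothelial cells, differed by 0.50 (adjusted p = 0.318, limma), with knockout array 1 at 8.66 and a difference of 0.30 without it, and no overlap of the groups. The endothelial marker mean (4 of 4 measured) was 6.85 to 7.16 on the knockout and 6.81 to 7.08 on the wild-type arrays, and its part in this gene was not tested. *Zfyve16*, an endosomal SMAD-binding protein, differed by 0.19, which became 0.12 when knockout array 1 and wild-type array 1 were left out (unadjusted p = 0.19, limma). Lower in knockout were *Amhr2*, the receptor of anti-Muellerian hormone (-1.27, adjusted p = 0.29), *Bmp8b* (-0.40, adjusted p = 0.355), the nodal antagonist *Lefty1* (-0.40, adjusted p = 0.289) and the transcriptional corepressor *Tgif2* (-0.24, adjusted p = 0.347; limma for all 4). *Bmp8b* differed by -0.13 without knockout array 1 and wild-type array 1 (unadjusted p = 0.218, limma). The other probe sets of *Amhr2* (-0.94 and -0.61), *Bmp8b* (-0.39) and *Tgif2* (-0.30) had the same sign. *Ppm1a*, a SMAD phosphatase, had probe sets of opposite sign, 0.31 at 1425537_at (unadjusted p = 0.0101) and -0.29 at 1453171_s_at (unadjusted p = 0.00321; limma for both), beside 0.0026 at its brightest.

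**Figure D5:**
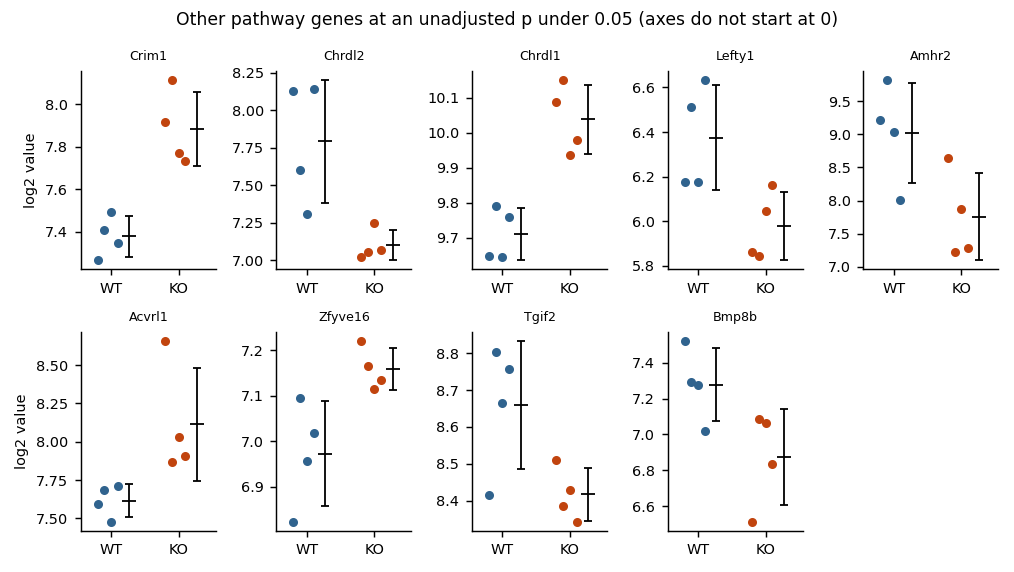
Log2 values of the 9 further superfamily genes with an unadjusted p under 0.05; points are arrays (WT, wild type, 4; KO, knockout, 4) and bars the mean and SD. The groups do not overlap for *Crim1*, *Chrdl1*, *Chrdl2*, *Acvrl1*, *Zfyve16* and *Lefty1*, and no gene passed the adjusted threshold. Of the 64 further genes measured, 6.25% had all knockout values above and 3.1% all below, beside 4.49% and 6.29% of all genes.

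Of the 9 marker lists, 5 had a higher mean in knockout, as *Fst* did. The others had a lower mean, as *Bmp7* did, with mean differences of -0.22 (leukocyte), -0.20 (prostate secretory), -0.16 (urothelium) and -0.06 (luminal epithelium). The seminal vesicle list had the largest mean difference, 0.52, with knockout arrays from 9.04 to 13.81 and wild-type arrays from 7.88 to 14.15, and the *Fst* difference without the highest array of each genotype is given above. Smooth muscle and endothelial markers differed by 0.03 and 0.09. The mean of the 4 basal epithelial markers was 11.24 to 11.77 on the knockout and 11.07 to 11.45 on the wild-type arrays, a mean difference of 0.23. The mean of the 6 fibroblast markers was 10.14 to 10.62 and 10.03 to 10.30, a mean difference of 0.24. None of the measured markers of the 5 lists with a higher mean in knockout had a mean under 5. The part of any list in the differences of *Fst* and *Bmp7* was not tested.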

How the data were processed

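RNA of whole prostate from 4 *Olfm4*-knockout and 4 wild-type mice was hybridised to Affymetrix Mouse Genome 430 2.0 arrays. The deposited values are log2 expression values that the authors made with RMA, of unstated version. Such values have no read depth, and the number of arrays limits precision. On each of 2 days, 2 knockout and 2 wild-type arrays were run.

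Differences between genotypes were tested 2-sided with limma's lmFit and eBayes (limma 3.58.1, R 4.3.3), array day being a further term. Adjusted p are Benjamini-Hochberg values over 45037 probe sets, without 64 control probe sets. Simulated data with the same groups were drawn as independent normal noise around each probe set's mean. In them 34%, 84%, 100% and 100% of 50 probe sets raised by 0.5, 1, 2 and 4 on the log2 scale were recovered. The limma threshold was an adjusted p under 0.05, and 5.36% of the calls were false. Array-day effects and deviations shared by the probe sets of an array were not simulated, so the rates hold for that simpler case only.

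A probe set was named where the platform annotation gave 1 symbol (34945; 932 had several and 9160 none), and a gene was taken at its brightest probe set by the mean of 8 arrays (18193 genes, 18145 with a symbol in RefSeq GRCm38.p6). All arrays are given for *Fst*, for listed genes at an unadjusted p under 0.05 and for the 6 largest differences. Another probe set of a listed gene was named at an unadjusted p under 0.05, or where its sign was opposite and either difference was at least 0.3 in size. Of the further superfamily genes, those at an unadjusted p under 0.05 were named. *Smad4*, *Inha*, *Bmp5* 1455851_at and further probe sets of listed and superfamily genes, such as *Fstl1* and *Bmpr1b*, were described beyond this rule after their values were seen. The genes and lists were chosen with earlier results of these data known. The alternatives tried were no array day, the methods' ANOVA, a replicate block, each day alone, other scalings and variance fits, a filter on dim probe sets, the mean of probe sets, and leaving out arrays. The permutation within array days was added after the data were seen.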

Additional observations from a re-analysis of the deposited data

Results flagged for a closer look

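In 8 of 82 groups of 4 arrays, 1 array lay far from its neighbour. The gap, as a share of the range of the group, exceeded Dixon's 95% critical value for 4 values. For independent groups of normal values this happens in about 1 in 20. The 82 groups share the same 8 arrays, and the rate over all genes was not counted. No excess of such arrays in the list is therefore read from this count. Among knockout arrays, array 1 was high for *Bmp6* (6.87) and *Tgfb3* (10.89), and array 3 was high for *Inhba* (6.71) and low for *Inha* (4.74) and *Id2* (10.75). Knockout array 2 was high for *Smad4* (12.84). Among wild-type arrays, array 2 was low for *Smad4* (12.55) and *Id3* (11.50).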

How the results depend on the processing

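No difference named below reversed its sign in the 19 alternatives, and *Bmp7* kept an unadjusted p under 0.05 in all 19 (-0.68 to -0.31). With an intensity trend and robust variance, 1 listed probe set, that of *Bmp7*, passed the adjusted threshold, and 0 did in the other 17 settings with this count. The count of listed genes at an unadjusted p under 0.05 was 6, and became 2 on array day 1 alone and 3 with each gene's probe sets averaged. These counts, and those with 1 array left out, were taken over all 41 genes. *Fst*, for which the list was drawn up, is among the 41, so the counts are descriptions and add no support. Leaving out 1 array gave 2 to 6 (2 without knockout array 2, 3 without knockout array 4 and 3 without wild-type array 3). The median difference then ranged from 0.020, without knockout array 2, to 0.086. *Fst* was 0.35 with the mean of its probe sets, and 0.72 to 0.89 with 1 array left out. The 9 further superfamily genes became 5 on day 2 alone and 6 to 11 with 1 array left out. The share of all genes was counted only for limma with array day and for the ANOVA. Counts of listed and further genes under the other settings are therefore not set beside such a share. *Smad1*, *Smad7*, *Id2* and *Acvr2b* lost an unadjusted p under 0.05 in 11, 9, 6 and 9 of the alternatives. With 1 array left out, *Smad1* lost it without knockout arrays 1, 2 or 3 or wild-type arrays 1, 2 or 3, *Smad7* without knockout arrays 2, 3 or 4 or wild-type arrays 1 or 3, *Id2* without knockout arrays 2 or 4 or wild-type arrays 3 or 4, and *Acvr2b* without knockout arrays 1, 2 or 4 or wild-type arrays 2 or 4. The causes were not tested.

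With the replicate block, 6 listed genes, *Fst* among them, and 12 further genes had an unadjusted p under 0.05. The share of all genes in this setting was not counted. Of all probe sets, 20 passed the adjusted threshold in place of 50. For arrays of the same number, 1 to 4, the correlations of their deviations were 0.34, 0.17, 0.043 and -0.0056. Knockout array 1 and wild-type array 1 shared high seminal vesicle values. The arrays numbered 2 shared an array day, as did those numbered 4.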
